A study of Drosophila melanogaster with 6 samples.

Results

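The proteasome subunit genes of Drosophila were examined in sorted cells of the wing imaginal disc, an epithelial sac of the larva from which the adult wing and dorsal thorax develop. Members were taken by symbol, as the rows of the deposited count table whose symbol begins with Prosalpha, Prosbeta, Rpn or Rpt, the last pair followed by a digit. This gave 39 of 14233 genes. Prosalpha1 stands in the table under a joint symbol, CG30382;Prosalpha1, which 2 rows carry, and was added as 1 gene, so that 40 genes are described. They comprise 31 genes for core subunits and 9 duplicate genes, named as relatives of a core subunit (R) or as testis forms (T). By part of the particle the core genes are 7 of the alpha ring, 7 of the beta ring, 5 base ATPases, 4 other base subunits and 8 lid subunits. The base ATPase gene Rpt1 is not analysed here.

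The experimental larvae carried Ap>Gal4, myrT, RasV12 and TubGal80ts, and the control larvae carried Ap>Gal4, myrT, GFP-i and TubGal80ts. RasV12 is a Ras GTPase locked in its active state, and the Ap>Gal4 driver works in the dorsal compartment of the disc. The labels do not spell out myrT or GFP-i. Both genotypes grew for 6 days at 18 °C, where the temperature-sensitive Gal80 holds the driver off, and for 3 days at 29 °C before the discs of wandering third-instar larvae were taken. Dorsal transgene-expressing cells were isolated by flow sorting, 150000 cells per library were lysed, and 3' mRNA sequencing counted the 3' ends of transcripts in 3 libraries per genotype. How many larvae were pooled, and whether replicates came from separate groups of larvae, is not stated, so the p-values speak only to the spread among these 6 libraries, which may be technical.

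The proteasome is the protease that degrades proteins tagged with ubiquitin. Its core particle is a barrel of stacked rings, in which the alpha rings form the gate and the beta rings enclose the proteolytic sites of the beta1, beta2 and beta5 subunits. The regulatory particle caps the barrel. Its base holds the ATPases that unfold the substrate together with scaffold and ubiquitin-receptor subunits, and its lid holds the deubiquitinase that releases the ubiquitin chain. In flies and mammals, factors of the cnc family (Nrf1 in mammals) are known to raise many subunit genes together when the proteasome is inhibited.

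Libraries held 11070295 to 15581752 counts. Ribosomal RNA rows took 10.1 to 17.3% and the mitochondrial chromosome 2.16 to 5.31% of counts. The 5 disc epithelium markers ap, vg, nub, Bx and Dr were all detected and summed to 687 to 955 CPM in RasV12 against 880 to 1036 CPM in GFP-i, where CPM is the TMM-scaled count rate of a gene relative to its library. Within that list nub and vg, genes of the wing pouch, fell (log2 fold changes of -3.58 and -1.45; edgeR adjusted p = 3.1e-07 and 9.9e-04) and Dr rose (0.87; adjusted p = 0.0016). Of 6 muscle precursor markers 3 were lower in RasV12 (Him, htl and zfh1), and the list summed to 56.5 to 66.3 CPM in RasV12 against 73.0 to 100.3 CPM in GFP-i. Mef2 of that list went the other way, at 46.8 to 53.8 CPM in RasV12 against 35.1 to 42.6 CPM in GFP-i. It did not pass (log2 fold change 0.33; edgeR adjusted p = 0.152). The markers twi and Act57B had negative log2 fold changes (-1.21 and -1.27) and did not pass either. The tracheal marker btl was higher and Gasp lower (edgeR adjusted p = 0.0054 and 0.0033). The remaining tracheal marker, trh, had a log2 fold change of -0.58 and did not pass (edgeR adjusted p = 0.061). The tracheal list summed to 66.1 to 82.4 CPM in RasV12 against 86.9 to 112 CPM in GFP-i. The haemocyte, fat body, neuron and glia and male germ line lists held no gene that passed. These 4 lists summed to 6.77 to 15.9, 5.79 to 15.8, 31.9 to 50.4 and 7.97 to 12.3 CPM per library, with 0, 1, 1 and 0 members at an unadjusted p under 0.05, and none of their genes in the table was at 0 in every library. The part that other cell types play in the results on the proteasome was not tested.

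Proteasome subunit genes were mostly at like levels in both genotypes. All 31 core genes and the duplicate Rpt3R had enough counts to be tested, and 8 duplicate genes did not. Of the 32 tested genes only Prosalpha1 rose and only Rpn11 fell, and 30 did not pass (edgeR quasi-likelihood test, adjusted p under 0.05). That is 6.25% of the tested members, while 14.8% of all 9134 tested genes passed, 9.15% higher and 5.68% lower in RasV12. The median log2 fold change, RasV12 over GFP-i, was -0.02 for the members and 0.02 for all tested genes. An unadjusted p under 0.05 was reached by 6 of the 32 members and by 28.3% of all tested genes. With scaling by library size only, 615 of 1526 called genes were higher, against 836 of 1355 with TMM. In sorted bulk cells, fewer cells of a type and less RNA per cell cannot be told apart.

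**Figure D1:**
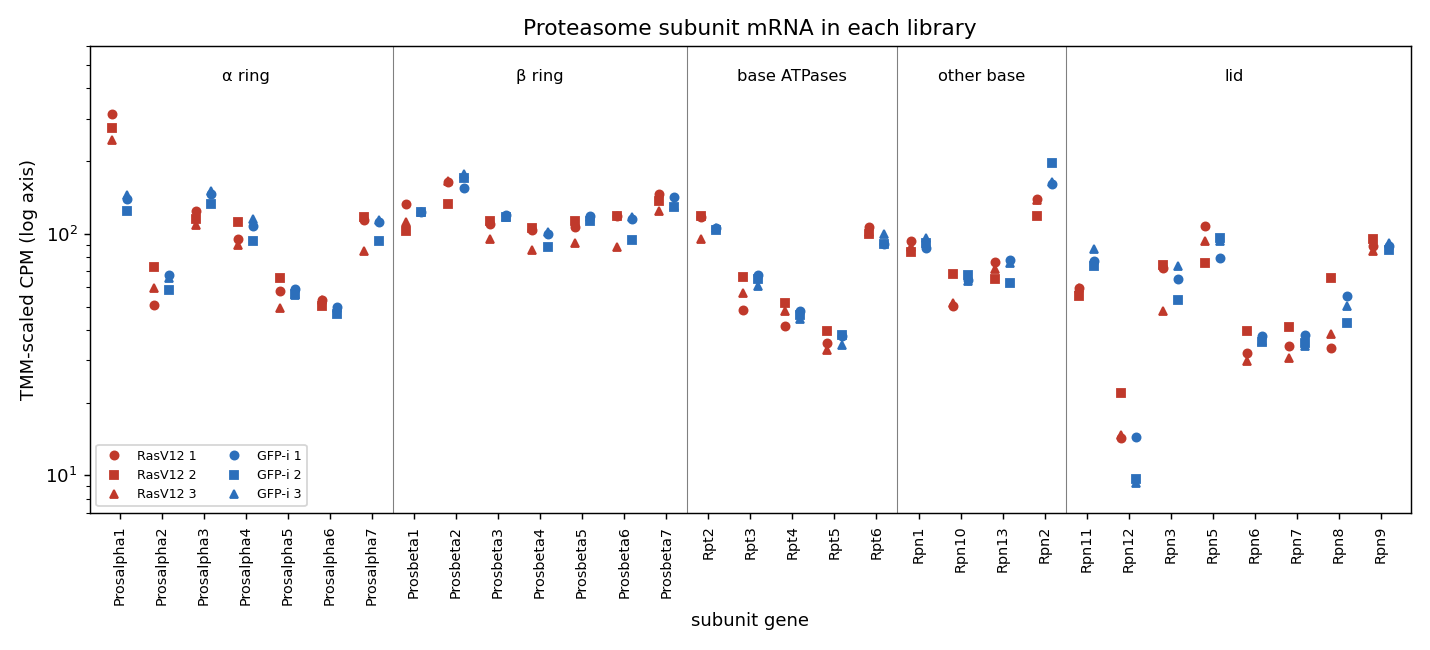
Level of each of the 31 core subunit genes in each library, as TMM-scaled CPM on a log axis, ordered by part of the proteasome (red, RasV12; blue, GFP-i; symbols mark replicates). Prosalpha1 stands higher in all 3 RasV12 libraries, and for most other genes the red and blue points overlap.

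With TMM scaling, the edgeR fit was precise enough to bound most changes. Other scalings shift the fold changes, and intervals under them are not given. The 95% interval of the log2 fold change lay within a 1.5-fold change in either direction for 26 of the 31 core genes. The exceptions were Prosalpha1, Rpn2, Rpn8, Rpn11 and Rpn12. Within a 2-fold change lay 29, all but Prosalpha1 and Rpn12. Standard errors of the log2 fold change ran from 0.12 to 0.24 with a median of 0.14. Mean levels in GFP-i ran from 11.1 CPM for Rpn12 to 174 CPM for Rpn2, with a median of 89.8 CPM, and single counts from 123 to 4322. Tags come from 3' ends, so levels are not set per length and genes are not ranked against each other. The groups did not overlap for 8 of the 32 tested members (25.0%), 4 above and 4 below, and for 33.6% of all tested genes.

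**Figure D2:**
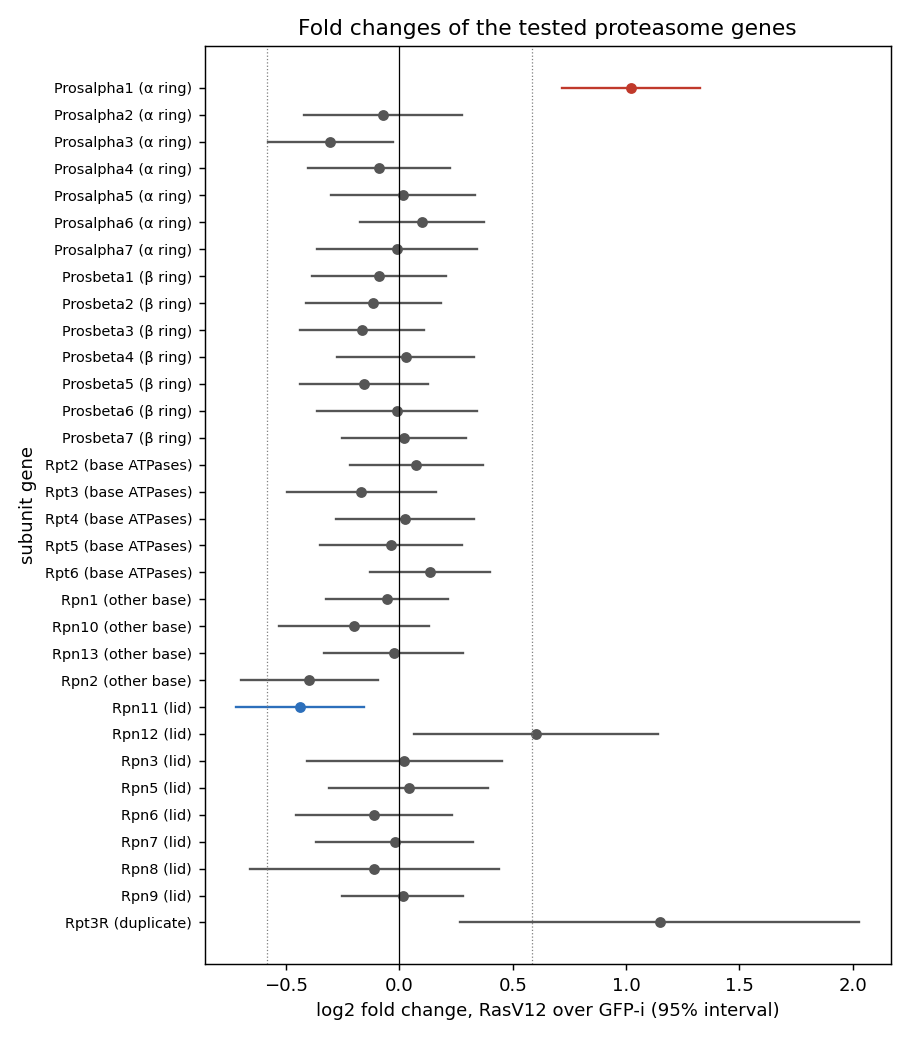
Log2 fold change, RasV12 over GFP-i, of the 32 tested members with the 95% interval (red, higher; blue, lower; grey, did not pass; dotted lines, 1.5-fold). Intervals of 26 core genes lie between the dotted lines, and those of Prosalpha1 and Rpt3R reach furthest to the right.

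The alpha ring held the 1 gene that rose. Prosalpha1 (chromosome 2R, 7827303 to 7828678, minus strand, dm6), a subunit of the outer ring, was measured at 314, 274 and 245 CPM in RasV12 replicates 1, 2 and 3 and at 139, 124 and 145 CPM in GFP-i replicates 1, 2 and 3. Every RasV12 library was thus above every GFP-i library. The mean rose from 136 ± 10.7 to 277 ± 34.7 CPM (SD, n = 3), a 2.03-fold change and on the log2 scale 1.02 ± 0.14 (SE; adjusted p = 8.2e-04 in edgeR). The gene passed in all 16 alternative fits, at log2 fold changes of 0.86 to 1.11. Divided by the mean level of the other 6 alpha subunits in the same library, Prosalpha1 stood at 3.79, 3.07 and 3.30 in RasV12 and at 1.54, 1.55 and 1.58 in GFP-i. In the authors' deposited table the unshrunken log2 fold change of Prosalpha1 was 0.99 with an adjusted p of 7.2e-09. It was not marked as a call in the authors' deposited table, where marked genes had shrunken log2 fold changes of 1.00 or more in size and the value of Prosalpha1 was 0.97.

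The value of Prosalpha1 cannot be assigned to 1 gene copy. The other row of the joint symbol, named Prosalpha1R in the annotation (2R, 7830413 to 7831771, minus strand), lies next to it and differed from it by only 1 to 12 counts in a library. That is at most 0.185 of the standard deviation of counting error, so the 2 rows may hold the same reads and are described as 1 gene. Counted as a member of its own, it would be a further gene that rose, at a log2 fold change of 1.03. Each copy also meets another gene at its 3' end on the other strand, where annotated exons overlap by 17 bases. Prosalpha1 meets the photolyase gene phr (2R, 7825289 to 7827319, plus strand), and Prosalpha1R meets CG18853, whose counts differ from those of phr by 2 to 10.

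The overlapping gene moved with Prosalpha1. The level of phr was 222, 156 and 155 CPM in RasV12 against 73.8, 83.3 and 76.4 CPM in GFP-i, and it rose by 1.19 ± 0.16 (log2, SE, n = 3 per group; edgeR adjusted p = 0.0010). The mean of phr rose by 99.6 CPM and that of Prosalpha1 by 141 CPM. The ratio of phr to Prosalpha1 was 0.708, 0.568 and 0.632 in RasV12 and 0.529, 0.669 and 0.525 in GFP-i, ranges that overlap. No source used here states whether counting used strand, so reads of the 2 genes cannot be told apart where they overlap, and the part of phr in the value of Prosalpha1 was not tested.

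**Figure D3:**
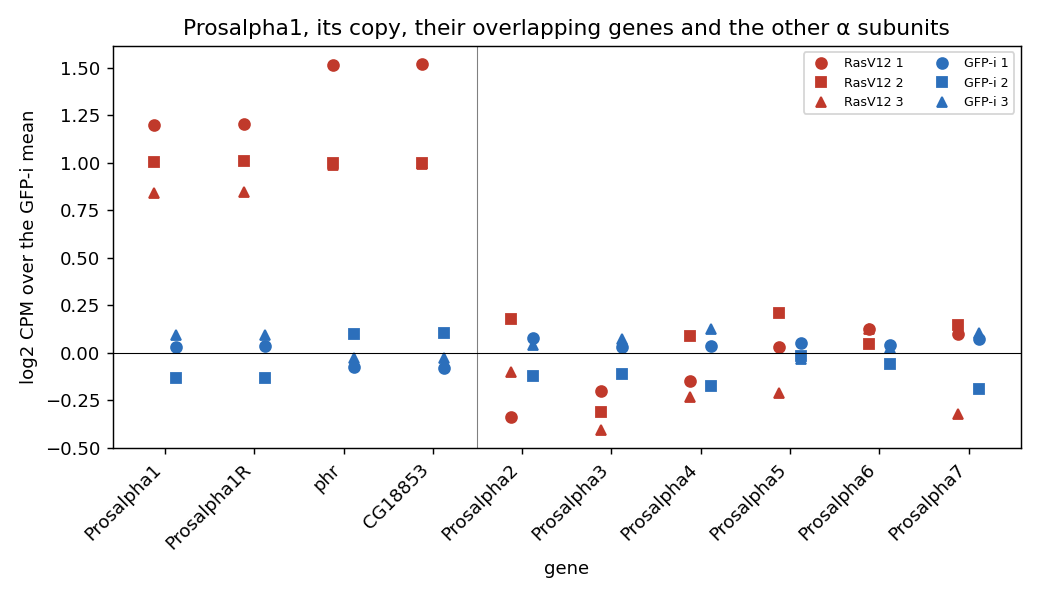
Level in each library relative to the GFP-i mean of the gene, on a log2 scale, for Prosalpha1, its copy Prosalpha1R and the overlapping genes phr and CG18853 (left of the line) and for the other 6 alpha subunit genes (right). The 4 genes of the locus are higher in all 3 RasV12 libraries, and none of the other alpha subunit genes passed the test.

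None of the other 6 alpha subunit genes passed (edgeR adjusted p = 0.138 to 0.974; 1 at an unadjusted p under 0.05; 0 with DESeq2 and limma-voom). The lowest p of these belonged to Prosalpha3, whose amino-terminal tail in yeast closes the gate of the barrel. It stood at 125, 115 and 108 CPM in RasV12 against 147, 133 and 151 CPM in GFP-i. The RasV12 libraries were all below the GFP-i libraries, with a log2 difference between genotypes of -0.30 ± 0.12 (SE, n = 3 each; adjusted p = 0.138 in edgeR), which passed only with scaling by library size (adjusted p = 0.025). The remaining structural ring members Prosalpha2 (-0.07), Prosalpha4 (-0.09), Prosalpha5 (0.02), Prosalpha6 (0.10) and Prosalpha7 (-0.01) had log2 fold changes near 0. The median of the 6 genes was -0.04. Prosalpha2 overlaps Aos1, with 5596 counts against its own 5104, by 24 exonic bases on the other strand. Prosalpha6 had narrow groups that lay apart, at 50.3 to 53.1 CPM in RasV12 against 46.7 to 50.0 CPM in GFP-i.

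No beta ring gene passed (edgeR adjusted p = 0.429 to 0.972), and none had an unadjusted p under 0.05. DESeq2 and limma-voom also called 0 of the 7. The lowest p belonged to Prosbeta3, a non-catalytic subunit, at 110, 113 and 94.8 CPM in RasV12 against 120, 118 and 118 CPM in GFP-i. Its groups did not overlap, and its log2 fold change was -0.16 with a 95% interval of -0.44 to 0.11. Prosbeta5, which carries the chymotrypsin-like site, followed at 107, 113 and 91.9 CPM in RasV12 against 118, 113 and 117 CPM in GFP-i. Its groups overlapped, with a log2 fold change of -0.16 (interval -0.44 to 0.13). The other catalytic subunits Prosbeta1 (caspase-like) and Prosbeta2 (trypsin-like) stood at -0.09 (interval -0.39 to 0.20) and -0.12 (interval -0.41 to 0.18). For the structural members Prosbeta4, Prosbeta6 and Prosbeta7 log2 fold changes were 0.03, -0.01 and 0.02, and the median of the ring was -0.09.

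The 5 base ATPase genes gave no call (edgeR adjusted p = 0.505 to 0.930; 0 at an unadjusted p under 0.05; 0 with DESeq2 and limma-voom). Rpt6 was measured at 107, 100 and 102 CPM in RasV12 against 91.0, 90.8 and 99.4 CPM in GFP-i. Its groups lay just apart, with a log2 fold change of 0.14 and an interval of -0.13 to 0.40. Rpt3 was measured at 48.3, 66.4 and 57.2 CPM in RasV12 against 67.3, 64.8 and 61.0 CPM in GFP-i, groups that overlapped (log2 fold change -0.17, interval -0.50 to 0.16). For Rpt2, Rpt4 and Rpt5 log2 fold changes were 0.07, 0.03 and -0.04, and the median of the 5 genes was 0.03. Rpt5 overlaps Hrd3, with 1711 counts against its own 2990, by 1 exonic base on the other strand.

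The other base subunit genes all had negative fold changes, and none passed (1 at an unadjusted p under 0.05; 0 with DESeq2 and limma-voom). Rpn2, the scaffold to which the ubiquitin receptor Rpn13 binds, stood at 140, 118 and 138 CPM in RasV12 against 161, 197 and 164 CPM in GFP-i. All RasV12 libraries were below all GFP-i libraries, and the log2 fold change was -0.40 ± 0.14 (SE, n = 3 each; adjusted p = 0.083 in edgeR). It passed when ribosomal RNA and mitochondrial rows were left out (adjusted p = 0.048) and when libraries were scaled by their size only (adjusted p = 0.026). Rpn10, a ubiquitin receptor, stood at 50.3, 68.2 and 52.0 CPM in RasV12 against 64.2, 67.7 and 63.8 CPM in GFP-i. Its groups overlapped through RasV12 replicate 2, and the log2 fold change was -0.20 (interval -0.53 to 0.13). Rpn1, the scaffold that docks shuttle factors, and Rpn13 stood at -0.05 and -0.03, and the median of the 4 genes was -0.13. The summed level of the 4 genes was 360, 336 and 349 CPM in RasV12 against 390, 419 and 400 CPM in GFP-i, without overlap.

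Of the 8 lid genes 1 fell. Rpn11, the deubiquitinase of the lid (2L, 5058404 to 5059790, minus strand), stood at 59.5, 55.3 and 59.8 CPM in RasV12 against 76.9, 73.5 and 86.2 CPM in GFP-i. The groups did not overlap, and the spread within RasV12 was small. The mean fell from 78.9 ± 6.57 to 58.2 ± 2.51 CPM (SD, n = 3), with a log2 difference of -0.44 ± 0.13 (SE; adjusted p = 0.044 in edgeR). No other gene in the table overlaps Rpn11. This call was lost without any single library but GFP-i replicate 2 (adjusted p = 0.061 to 0.124) and with limma-voom (adjusted p = 0.050, just above the threshold). In the authors' deposited table Rpn11 had an unshrunken log2 fold change of -0.47 and an adjusted p of 0.017. It was not marked as a call there, and its shrunken log2 fold change was -0.46. Relative to the mean of the other 7 lid genes in the same library, Rpn11 was at 1.08, 0.935 and 1.23 in RasV12 and 1.42, 1.43 and 1.55 in GFP-i.

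Rpn12, a late-joining lid subunit and the core gene with the lowest counts, had the largest positive fold change among core genes after Prosalpha1. It stood at 14.2, 21.8 and 14.7 CPM in RasV12 against 14.4, 9.67 and 9.29 CPM in GFP-i, so that the groups overlapped through GFP-i replicate 1. Its log2 fold change of 0.60 ± 0.24 (n = 3 per group, ± SE) did not pass (edgeR adjusted p = 0.132). Rpn8, which pairs with Rpn11, had the widest spread and is described for that reason, a choice made after its values were seen. It stood at 33.5, 65.7 and 38.7 CPM in RasV12 against 55.4, 42.9 and 50.2 CPM in GFP-i. RasV12 replicate 2 was 1.96 times the lowest RasV12 library, and the log2 fold change was -0.11 with an interval of -0.66 to 0.44. The gene slik, with fewer counts, lies over Rpn8 on the other strand without exonic overlap. The scaffold members of the lid Rpn3 (0.02), Rpn5 (0.04), Rpn6 (-0.11), Rpn7 (-0.02) and Rpn9 (0.02) had log2 fold changes near 0.

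Sem1, a small lid subunit that the choice by symbol does not take in, stood at 247, 170 and 244 CPM in RasV12 against 289, 295 and 335 CPM in GFP-i. The groups did not overlap, but its log2 fold change of -0.47 ± 0.16 (n = 3 per group, ± SE) did not pass (edgeR adjusted p = 0.080). DESeq2 called it (adjusted p = 0.033), as did the fits with no filter, with library size as the only scaling and with ribosomal RNA and mitochondrial rows left out (adjusted p = 0.023 to 0.043). Nuf2, with far fewer counts, overlaps Sem1 by 37 exonic bases on the other strand.

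Summed over the particle, subunit mRNA overlapped between the genotypes. The 30 core genes other than Prosalpha1 summed to 2532, 2539 and 2291 CPM in RasV12 against 2613, 2510 and 2658 CPM in GFP-i. The lowest library was RasV12 replicate 3, and the ratio of the group means was 0.946. With Prosalpha1 included, the 31 core genes summed to 2846, 2813 and 2535 CPM in RasV12 against 2753, 2635 and 2804 CPM in GFP-i. The ratio of the group means was then 1.00. The regulatory particle genes stood to the core particle genes without Prosalpha1 at 0.836, 0.871 and 0.898 in RasV12 and at 0.844, 0.908 and 0.848 in GFP-i, again with overlap. Sums add counts of 3' ends, in which transcript length plays no part, and a sum weights abundant genes most.

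**Figure D4:**
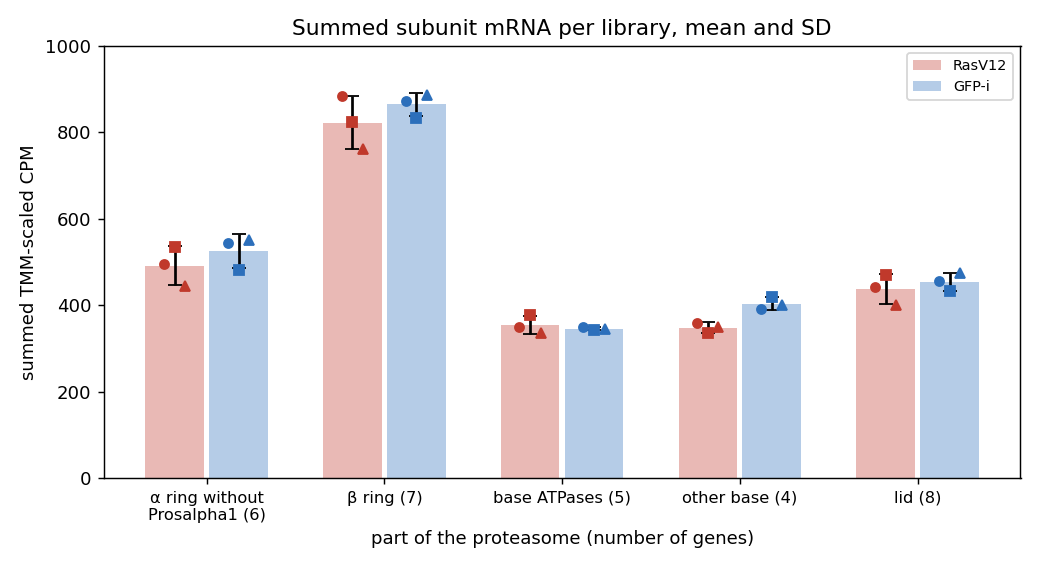
Summed TMM-scaled CPM of the subunit genes of each part of the proteasome, with bars for the mean and error bars for the SD of 3 libraries (points, single libraries; red, RasV12; blue, GFP-i). The groups overlap for every part except the 4 other base subunits, at 336 to 360 CPM against 390 to 419 CPM.

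Within a genotype, the same libraries were high or low for many subunit genes. Within RasV12, replicate 2 was the highest library for 18 of the 31 core genes and replicate 3 the lowest for 16. Within GFP-i, replicate 2 was the lowest library for 19. These counts are not given for all tested genes, so they are not shown to be particular to subunit genes. The median ratio of the highest to the lowest library was 1.25 in RasV12 and 1.12 in GFP-i. RasV12 replicate 3 and GFP-i replicate 2 also lay on the same side of the second principal component of all tested genes, which held 21.8% of the variance, and RasV12 replicate 1 lay on that side too. When RasV12 replicate 3 and GFP-i replicate 2 were both left out, a choice made after seeing the data, 2 members rose, Prosalpha1 (log2 fold change 1.00) and Rpt6R, and none fell. Rpt6R was tested there only through its RasV12 counts, as it had 1 count in each GFP-i library. RasV12 replicate 2 had the highest mitochondrial share, 5.31%. Another 9 core genes had their lowest RasV12 level in replicate 2, among them Rpn2, Rpn5 and Rpn11.

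**Figure D5:**
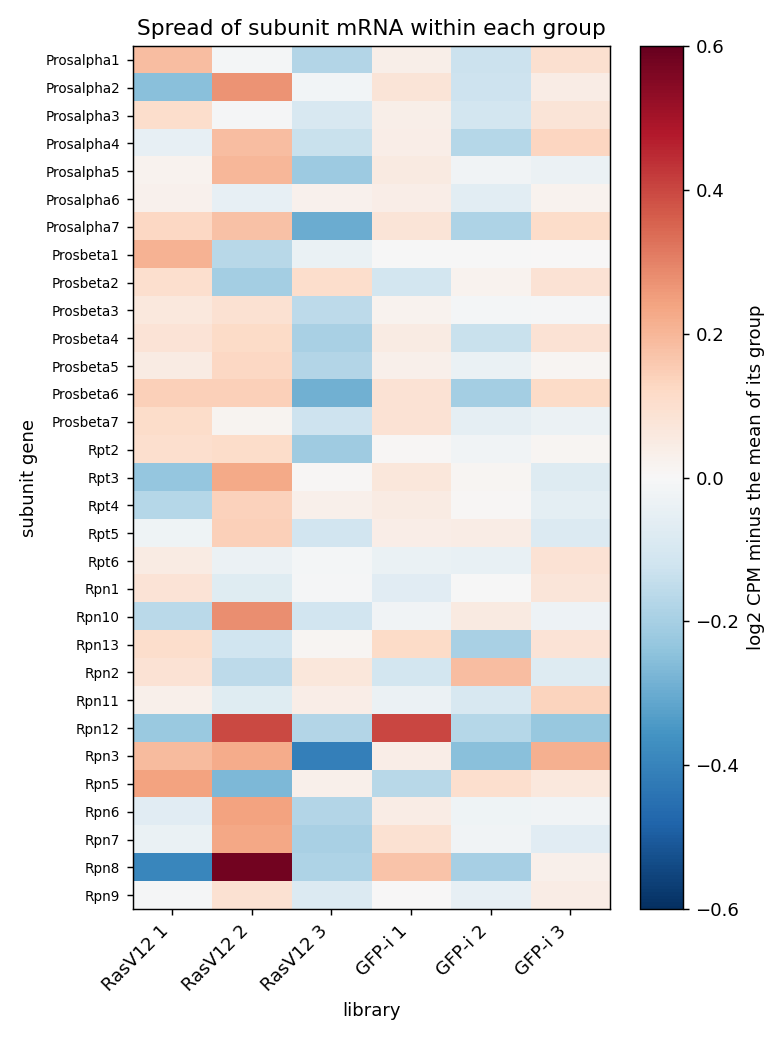
Log2 CPM of each core gene in each library minus the mean of its group, so that red marks a library above and blue a library below the other replicates. RasV12 replicate 3 and GFP-i replicate 2 are blue for most genes, and Rpn8 in RasV12 replicate 2 is the strongest red.

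The duplicate genes, several of which are known in flies from the testis, were near silent apart from a pair of ATPase relatives. Rpt3R, related to Rpt3, stood at 4.86, 3.75 and 2.91 CPM in RasV12 against 1.65, 1.00 and 2.57 CPM in GFP-i. The groups lay apart, but its log2 fold change of 1.15 ± 0.39 (n = 3 per group, ± SE), the largest of the tested members, did not pass (edgeR adjusted p = 0.084). Rpt3R overlaps CG8412, with 228 counts against its own 222, by 20 exonic bases on the other strand. Rpt6R, related to Rpt6, had 13, 13 and 9 counts in RasV12 and 1 count in each GFP-i library, too few for the test. With TMM-scaled library sizes, its ratio was 13.1 (95% exact counting interval 4.11 to 66.3, counting error only). It passed with DESeq2 (adjusted p = 0.014) and in edgeR with no filter (adjusted p = 0.0063), and it is marked as higher in the authors' deposited table, with an adjusted p of 0.0083. These passes rest on the same few reads and are not independent support. Where a filter applied, Rpt6R could be tested only through its RasV12 counts.

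The other 7 duplicate genes had 3 to 21 counts over all 6 libraries. Prosalpha4T2 had 0, 0 and 2 counts in RasV12 and 5, 12 and 2 in GFP-i, a ratio of 0.118 with an exact counting interval of 0.013 to 0.488. That interval leaves out the spread between replicates. The unadjusted p of Prosalpha4T2 was 0.065 with DESeq2 and 0.069 in the authors' deposited comparison, neither with an adjusted p. The largest count of any of these genes in a library was 12. Prosalpha6T, Prosbeta2R1, Prosbeta2R2, Prosbeta4R1, Prosbeta4R2 and Prosbeta5R2 had exact counting intervals of the ratio that all included 1. A floor of 3 counts stood for 0.193 to 0.271 CPM, without TMM scaling. The male germ line markers vas, bam and bgcn, which were tested, did not pass.

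Genes that work with the proteasome were read against the same 14.8% of all tested genes called and 28.3% at an unadjusted p under 0.05. Of 9 tested assembly and activator genes 1 rose, 1 fell and 7 did not pass, with 3 at an unadjusted p under 0.05 and a median log2 fold change of -0.01. The lid subunit gene Sem1, described above, is counted in this list and is among those 3. Uch-L5, the deubiquitinase that binds the proteasome through Rpn13, stood at 78.4, 70.6 and 71.0 CPM in RasV12 against 117, 107 and 123 CPM in GFP-i. Its groups were far apart, and it fell by 0.66 ± 0.13 (log2, SE, n = 3 per group; edgeR adjusted p = 0.0062), a call kept in all 16 alternative fits. CG3356, a HECT-type ubiquitin ligase gene, stood at 31.3, 23.6 and 23.3 CPM in RasV12 against 16.2, 15.7 and 17.8 CPM in GFP-i. Its groups lay apart, and it rose by 0.66 ± 0.17 (log2, SE, n = 3 each; adjusted p = 0.032 in edgeR). This call was kept in 9 of the 16 alternative fits. Among the losses, it did not pass when RasV12 replicate 1 or any GFP-i replicate was left out (adjusted p = 0.107 to 0.119), when RasV12 replicate 3 was left out together with GFP-i replicate 2 (0.128), or when libraries were scaled by their size only (0.067). Pomp, the maturation factor of the core particle, stood at 76.3 ± 2.82 CPM in RasV12 against 79.3 ± 2.79 CPM in GFP-i (SD, n = 3). The gene vari, with 10970 counts against 6432 for Pomp, overlaps Pomp by 437 exonic bases on the other strand. The part of vari in the value of Pomp was not tested.

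Of 8 ubiquitin and activating enzyme genes none passed in the edgeR fit with TMM scaling, and 4 had an unadjusted p under 0.05. The 2 lowest p depended on the fit. Uba2, a subunit of the SUMO-activating enzyme, stood at 110, 99.1 and 97.4 CPM in RasV12 against 132, 127 and 140 CPM in GFP-i, and passed as lower in 6 of 16 alternatives (log2 fold change -0.38; edgeR adjusted p = 0.061). Nedd8, a ubiquitin-like modifier, stood at 65.0, 59.7 and 61.1 CPM in RasV12 against 85.6, 72.6 and 85.3 CPM in GFP-i, and passed as lower in 4 of 16 (log2 fold change -0.39; edgeR adjusted p = 0.073). Neither gene's groups overlapped. The number of genes of this list called lower was 2 with DESeq2, 2 with the filter at 10 CPM, 2 without ribosomal RNA and mitochondrial rows, 1 with RLE factors, 1 with upper quartile scaling and 0 with limma-voom. The list's median log2 fold change was -0.23. With scaling by library size only, under which the median of all tested genes was -0.14, 4 genes of this list fell. Of 9 genes of the segregase TER94 (p97) and of shuttle factors none passed (1 at an unadjusted p under 0.05; 0 with DESeq2 and limma-voom), and their median was -0.01. The lowest p belonged to the shuttle factor gene Rad23, at 110, 111 and 102 CPM in RasV12 against 91.5, 77.0 and 86.6 CPM in GFP-i, without overlap (log2 fold change 0.34; edgeR adjusted p = 0.104), and then to the p97 cofactor gene p47 (-0.16).

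Regulators were measured as well. None of 6 genes of the cnc pathway passed (2 at an unadjusted p under 0.05; 0 with DESeq2 and limma-voom), and the list's median was 0.22. The transcription factor gene cnc stood at 235, 231 and 297 CPM in RasV12 against 187, 212 and 200 CPM in GFP-i. These groups did not overlap, with a log2 difference between genotypes of 0.35 ± 0.14 (SE, n = 3 each; adjusted p = 0.127 in edgeR), and Irk1 overlaps cnc on the other strand. Its partner gene maf-S stood at 0.41 and passed only without RasV12 replicate 2 (adjusted p = 0.033), and sip3, the fly Hrd1 ligase, at -0.39 (adjusted p = 0.171). Among 11 cullin ligase genes (median 0.04) 1 rose, the RING subunit gene Roc2, from 38.1, 44.7 and 44.7 CPM in GFP-i to 67.4, 66.4 and 77.6 CPM in RasV12, groups far apart (log2 fold change 0.73; edgeR adjusted p = 0.0057). Its call did not survive leaving out RasV12 replicate 3 together with GFP-i replicate 2 (adjusted p = 0.063). In the ER-associated degradation list of 5 genes (median -0.14) 1 rose, Herp, which encodes an ER membrane protein, from 7.75, 6.84 and 6.65 CPM in GFP-i to 12.7, 11.5 and 13.5 CPM in RasV12, again apart (log2 fold change 0.83; edgeR adjusted p = 0.014). This list shares sip3 and Hrd3 with the cnc pathway list, so the lists are not independent. Leaving out RasV12 replicate 1, or either of GFP-i replicates 2 and 3, cost Herp its call, at adjusted p from 0.051 to 0.092, as did leaving out RasV12 replicate 3 together with GFP-i replicate 2 (adjusted p = 0.133).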

How the data were processed

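Counts per gene were taken from 1 table for 3 RasV12 and 3 GFP-i libraries. The deposited counts are whole numbers and not normalized, as found from their values. Reads were handled on build dm6 with STAR 2.3.0e, Trimmomatic 0.33, DESeq2 and bedtools 2.17, per the submitters' processing notes, and no source used here names the counting program or its strand setting. Per the file headers, the authors' comparison is deposited as baseMean, a signal (mean of counts divided by size factors), log2 fold changes with errors, a test statistic or score, p-values, and a column of another kind that marks calls. All member coordinates were identical in the supplied Ensembl annotation.

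The whole table was fitted in R 4.3.3 with edgeR 4.0.16 (TMM scaling, filterByExpr, robust quasi-likelihood F test, two-sided, Benjamini-Hochberg over 9134 genes, threshold 0.05), after a check on simulated data. Standard errors came from the F statistic and 95% intervals from its degrees of freedom. DESeq2 1.42.0 and limma 3.58.1 (voom) served as alternatives, with other scalings, filters and thresholds, a replicate block and single libraries left out. Members and gene lists were chosen with earlier results of these data known. All tested members are named. Values per library are given for members that passed, for the 2 lowest p in each part of the particle and for the highest and lowest fold changes. List genes other than cell type markers are named where they passed or had the 2 lowest p of a list, with values per library for those that passed. Sem1, Pomp and maf-S are named outside this rule. Values per library are also given for Sem1, Uba2, Nedd8, Rad23 and cnc, which did not pass in the main edgeR fit. Intervals on counts cover counting error only. Symbols missing from the table were taken from the supplied symbol table. No sequences are shown.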

Additional observations from a re-analysis of the deposited data

How the results depend on the processing

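Prosalpha1 was higher in all fits run, and 28 of the 32 tested members passed in none of the 16 alternatives. Of all tested members 17 had the opposite sign in at least 1 alternative, and none of those passed in any. The number of members that rose (1) was 2 with DESeq2, with no filter and at an adjusted p under 0.10, and ranged from 1 to 2 when 1 library was left out, because Rpt6R was then tested or Rpt3R passed the looser threshold. It was also 2 when RasV12 replicate 3 was left out together with GFP-i replicate 2, a choice made after seeing the data. Over the 39 rows that match by symbol alone, which leave out the added Prosalpha1, it was 0. That count was not planned beforehand. Where a filter applied, Rpt6R could be tested only through its counts in RasV12, the group where it was higher. The number that fell (1) was 3 with library size only, 2 without ribosomal RNA and mitochondrial rows, 2 at an adjusted p under 0.10, 0 with limma-voom, 0 at an adjusted p under 0.01, 0 with those 2 libraries left out together, and 0 to 1 with 1 library left out. The median log2 fold change of the members (-0.02) was -0.18 with library size only and ran from -0.14 to 0.018 with 1 library left out.

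The labels do not say whether libraries that share a replicate number were prepared together. The deviations of same-numbered libraries from their group means correlated at -0.03, -0.42 and -0.11. Such deviations sum to 0 within a group, so these values cannot decide whether the libraries pair. With the replicate number as a block 1 member rose, Prosalpha1 at 1.02, 0 fell, and Rpn11 stood at -0.44 (adjusted p = 0.136). Over all genes 701 passed with the block and 1355 without it. Among the genes around the proteasome, CG3356 and Herp also lost their calls with the block (adjusted p = 0.114 and 0.074). With 1 library left out, the number of all genes called ran from 741 (GFP-i replicate 3) to 1521 (RasV12 replicate 2). Depth limits the duplicate genes: 8 of 9 had too few counts to test.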

Other observations

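Other large complexes that are built from many subunits were read in the same fit. Of 8 tested genes of the COP9 signalosome, whose subunits are related to those of the lid, none passed in edgeR, DESeq2 or limma-voom (1 at an unadjusted p under 0.05), and the median log2 fold change was -0.18. Its lowest p belonged to CSN7, with mean levels of 26.4 ± 1.22 CPM in RasV12 against 34.9 ± 0.753 CPM in the controls (SD, n = 3; adjusted p = 0.082 in edgeR), and CSN6 followed at a log2 fold change of -0.21. Of 13 genes of the translation initiation factor eIF3, which shares the lid's subunit families, none passed in edgeR (3 at an unadjusted p under 0.05; limma-voom 0), DESeq2 called 1 as lower, and the median was 0.01. The lowest p values were those of eIF-3p66 (-0.40) and Adam (-0.32). None of 8 genes of the CCT chaperonin passed in edgeR, DESeq2 or limma-voom (1 at an unadjusted p under 0.05), with a median of -0.04 and CG5525 (-0.31) and Tcp-1eta (-0.22) lowest in p. With scaling by library size only, 1, 2 and 1 genes of these lists fell.

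In the authors' deposited table Prosbeta6 and Rpn2 have no p-value, although the mean normalized counts in that table are 1469 and 2072. They are among 61 genes of that table with a mean above 100 and no p-value. In the DESeq2 fit made here both genes had one, with adjusted p of 0.929 and 0.051.

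Annotated exons of 14 of the 40 member genes overlap those of a gene on the other strand, by 1 to 182 bases.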
